A study of Mus musculus with 9 samples.

Results

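Cabp1, Lpcat4, Ngef, Ahi1, AW551984 and Slitrk6 are 6 of the 20731 gene symbols counted in mouse brain after cerebral venous sinus thrombosis (CVST), and all 6 were among the 14746 genes that passed the filter on low counts. They were picked by name because their levels differed between the groups of these same libraries while they stand on none of the lists of brain region markers used here. Their levels and fold changes are therefore a description and carry no test. All 9 libraries came from male C57BL/6J mice aged 8 to 10 weeks, taken on day 2 after a thrombus was made in the superior sagittal sinus, the large vein along the midline of the brain, with ferric chloride. The CVST group (3 mice) had the thrombosis alone. In the CVST+Ligation group (3 mice) the deep cervical lymph nodes, through which meningeal lymph drains, were also tied off at the hilum, where lymphatic and blood vessels run together. The 4-PBA group (3 mice) had thrombosis and ligation and received 4-phenylbutyric acid at 100 mg/kg, a small fatty acid that relieves stress of the endoplasmic reticulum. The methods place this injection 30 min before modelling, whereas the data set's description places it after ligation. Brain is the labelled tissue, and the description speaks of cortex. The comparison of CVST+Ligation with CVST addresses the effect of ligation, and that of 4-PBA with CVST+Ligation the effect of the drug. The methods describe no neck surgery for mice without ligation, so neck surgery, tied blood vessels and blocked lymphatic outflow cannot be told apart. The paper itself names local inflammation from the ligation as a possible confounder. It states that control mice received solvent, without saying whether the CVST+Ligation mice are meant.

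The 6 genes have unrelated roles. Cabp1 encodes CaBP1, a calmodulin-like calcium sensor of neurons that regulates voltage-gated calcium channels and inositol trisphosphate receptors. Lpcat4 encodes an acyltransferase that adds a fatty acid to lysophospholipids and so remodels membrane phospholipids. Ngef encodes ephexin, a guanine nucleotide exchange factor that couples EphA receptors to the actin cytoskeleton in neurons. Ahi1 encodes jouberin, a scaffold protein of the ciliary transition zone that binds huntingtin-associated protein and is mutated in Joubert syndrome. Slitrk6 encodes a leucine-rich repeat transmembrane protein of the Slitrk family, which binds receptor tyrosine phosphatases and shapes neurites and synapses. AW551984 is a protein-coding gene that still carries the name of an expressed sequence, and it was set beside genes with von Willebrand A domains.

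In GENCODE M21 on GRCm38, Cabp1 lies at chr5:115168689-115194381 on the minus strand, Lpcat4 at chr2:112239468-112247111 on the plus strand and Ngef at chr1:87476834-87573870 on the minus strand. Ahi1 lies at chr10:20952547-21080429 on the plus strand, AW551984 at chr9:39587396-39604403 on the minus strand and Slitrk6 at chr14:110748580-110755149 on the minus strand. No 2 of them share a chromosome. The exons of Ngef share 123 bases with those of Neu2, a sialidase gene on the opposite strand, and the strand setting of the counting is not given in the sources used here. Neu2 itself held 26 to 252 counts per library, 0.918 to 2.83% of the counts of Ngef, so the level of Ngef is uncertain by the reads the 2 genes share.

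RefSeq (GRCm38.p6) gave promoters, windows of 300 bases that end just after a transcript start, for all 6 genes. Cabp1 and Ahi1 have 2 such windows each and AW551984 has 3, and the one farthest upstream is shown. The promoters of Cabp1, Lpcat4 and Ngef are shown because these genes were lower in every ligated mouse, and those of Ahi1 and AW551984 because the levels of this pair ran in parallel across the libraries. Letters are written 5′ to 3′ on the strand of the gene. Capitals mark the GC box GGGCGG and the cyclic AMP element core TGACG, searched on both strands.
Cabp1, chr5:115194332-115194631, minus strand: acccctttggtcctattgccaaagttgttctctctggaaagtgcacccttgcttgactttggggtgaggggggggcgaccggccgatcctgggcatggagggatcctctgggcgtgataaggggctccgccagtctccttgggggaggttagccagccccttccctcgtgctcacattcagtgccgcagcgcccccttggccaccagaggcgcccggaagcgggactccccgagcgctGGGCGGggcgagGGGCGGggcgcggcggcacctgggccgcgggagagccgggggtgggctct
Lpcat4, chr2:112239591-112239890, plus strand: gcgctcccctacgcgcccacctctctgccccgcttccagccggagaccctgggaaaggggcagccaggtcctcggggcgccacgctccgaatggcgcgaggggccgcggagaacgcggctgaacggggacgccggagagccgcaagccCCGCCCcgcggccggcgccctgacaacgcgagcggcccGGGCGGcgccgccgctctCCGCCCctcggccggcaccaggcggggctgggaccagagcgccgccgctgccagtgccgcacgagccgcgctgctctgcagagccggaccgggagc
Ngef, chr1:87573821-87574120, minus strand: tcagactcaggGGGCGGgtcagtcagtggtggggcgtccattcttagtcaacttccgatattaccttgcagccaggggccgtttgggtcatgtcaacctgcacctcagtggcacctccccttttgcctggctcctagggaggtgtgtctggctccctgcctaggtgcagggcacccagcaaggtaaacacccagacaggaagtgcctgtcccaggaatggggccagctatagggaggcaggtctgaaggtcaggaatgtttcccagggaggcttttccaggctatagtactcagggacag
Ahi1, chr10:20952297-20952596, plus strand: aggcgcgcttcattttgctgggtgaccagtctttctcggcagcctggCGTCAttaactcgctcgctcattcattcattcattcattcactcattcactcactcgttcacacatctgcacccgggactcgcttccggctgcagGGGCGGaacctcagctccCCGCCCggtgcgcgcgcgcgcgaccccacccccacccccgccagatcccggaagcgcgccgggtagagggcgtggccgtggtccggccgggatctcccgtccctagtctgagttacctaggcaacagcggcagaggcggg
AW551984, chr9:39604221-39604520, minus strand: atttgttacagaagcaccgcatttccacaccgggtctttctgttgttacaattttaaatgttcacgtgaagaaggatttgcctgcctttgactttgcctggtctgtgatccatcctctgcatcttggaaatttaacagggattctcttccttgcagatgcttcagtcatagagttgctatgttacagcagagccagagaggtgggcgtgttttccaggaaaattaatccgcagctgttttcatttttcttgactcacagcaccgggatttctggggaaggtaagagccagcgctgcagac
The promoter of Lpcat4 held 3 GC boxes and 45 CpG dinucleotides, and 98.4% of the 32851 promoters of the same length had as many CpG or fewer. Cabp1 held 2 GC boxes and 22 CpG, with 1 GC box and 12 CpG in its second window, and Ahi1 held 2 GC boxes, 1 TGACG core and 31 CpG. The AW551984 promoter shown held neither motif and 7 CpG. Its other two windows held 6 and 2 CpG, the last with 1 GC box, and the second window of Ahi1 held 0 GC boxes and 3 CpG. Ngef had 1 GC box and 4 CpG in its window, and Slitrk6, not shown, had 0 GC boxes and 4 CpG. The GC box stands in 35.7% and the TGACG core in 20.8% of all promoters. None of these windows held the EGR site GCGTGGGCG or the full element TGACGTCA, which stand in 0.612% and 1.79% of all promoters. A match is a description of letters only.

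Library totals were 18100739 to 25091498 counts, and a floor of 3 counts corresponded to 0.114 to 0.163 CPM, the counts of a gene scaled to the size of its library. Within groups, log2 CPM of any 2 libraries correlated across genes with r of 0.946 to 0.982. Summed CPM of 6 pan-neuronal markers was 3612 to 4581 in CVST, 3607 to 4045 in CVST+Ligation and 2898 to 3479 in 4-PBA, so that it was lower in all 4-PBA mice than in CVST. Markers of brain regions differed more widely by group and library. The sources used here do not say that the same region was dissected from every mouse, so a change within a region and unequal sampling of regions cannot be told apart in any value below. CVST+Ligation replicate 2 stood apart, with 1201 summed CPM of 9 cerebellar neuron markers against 41.8 to 101 in the other 8 libraries. The values of the 6 genes without this library are given below.

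Cabp1, the calcium sensor, was highest in CVST and lowest in 4-PBA. Its level was 89.2, 106.9 and 100.2 CPM in replicates 1, 2 and 3 of CVST. It was 53.8, 61.9 and 51.6 CPM in CVST+Ligation and 36.0, 49.2 and 45.4 CPM in 4-PBA. No 2 of the 3 groups overlapped. Group means were 98.8 ± 8.94, 55.8 ± 5.44 and 43.5 ± 6.77 CPM (SD, n = 3), and the log2 fold change was -0.82 (SE 0.15) for CVST+Ligation against CVST and -0.36 (SE 0.15) for 4-PBA against CVST+Ligation.

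Lpcat4, the acyltransferase, was lower in both ligated groups, which resembled each other. It was measured at 117, 145 and 126 CPM in CVST, at 75.6, 87.4 and 84.9 CPM in CVST+Ligation and at 81.0, 80.3 and 75.1 CPM in 4-PBA. The 6 ligated mice lay below all 3 CVST mice and were interleaved with each other. The means were 129 ± 14.2, 82.7 ± 6.21 and 78.8 ± 3.23 CPM (SD, n = 3). The log2 fold change was -0.64 (SE 0.12) for CVST+Ligation against CVST and -0.07 (SE 0.12) for 4-PBA against CVST+Ligation. Its spread between mice was small, with a coefficient of variation of 4.10% in 4-PBA and 11.0% in CVST.

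Ngef, the exchange factor, had the largest decrease of the 3 lower genes. CVST replicates 1, 2 and 3 held 485, 539 and 319 CPM, CVST+Ligation replicates 157, 108 and 230 CPM and 4-PBA replicates 146, 207 and 151 CPM. CVST replicate 3 was the lowest of its group but still above every ligated mouse. The ligated groups overlapped, and CVST+Ligation held both the lowest and the highest value among the 6 ligated mice. Means were 448 ± 115, 165 ± 61.4 and 168 ± 33.7 CPM (SD, n = 3), with a log2 fold change of -1.44 (SE 0.29) for CVST+Ligation against CVST and 0.02 (SE 0.29) for 4-PBA against CVST+Ligation.

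Ahi1, which encodes jouberin, was higher after ligation and highest in the 4-PBA group. It was 146, 100 and 180 CPM in CVST, 326, 430 and 297 CPM in CVST+Ligation and 636, 564 and 388 CPM in 4-PBA. All ligated mice lay above all CVST mice, and 4-PBA replicate 3 lay below CVST+Ligation replicate 2. Means were 142 ± 40.1, 351 ± 70.2 and 529 ± 127 CPM (SD, n = 3). The log2 fold change was 1.30 (SE 0.26) for CVST+Ligation against CVST and 0.59 (SE 0.25) for 4-PBA against CVST+Ligation.

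AW551984 followed the same course from a lower level. CVST replicates held 5.44, 3.59 and 13.0 CPM, CVST+Ligation replicates 33.9, 81.7 and 35.7 CPM and 4-PBA replicates 95.1, 99.9 and 68.1 CPM. CVST did not overlap either ligated group. Within CVST+Ligation, replicate 2 was far above the other two and above 4-PBA replicate 3. Means were 7.33 ± 4.96, 50.4 ± 27.1 and 87.7 ± 17.1 CPM (SD, n = 3), and the log2 fold change was 2.79 (SE 0.50) for CVST+Ligation against CVST and 0.80 (SE 0.46) for 4-PBA against CVST+Ligation.

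Slitrk6, the synaptic adhesion protein, was the scarcest of the 6 genes. Its raw counts were 15, 5 and 5 in CVST, 47, 24 and 49 in CVST+Ligation and 91, 68 and 169 in 4-PBA. These corresponded to 0.637, 0.222 and 0.271 CPM, to 1.94, 1.24 and 2.15 CPM and to 4.93, 2.86 and 6.44 CPM. The 3 groups did not overlap, though CVST replicates 2 and 3 lay just above the floor of 3 counts. The means were 0.377 ± 0.227, 1.78 ± 0.480 and 4.74 ± 1.80 CPM (SD, n = 3). The log2 fold change was 2.21 (SE 0.51) for CVST+Ligation against CVST and 1.41 (SE 0.46) for 4-PBA against CVST+Ligation, and the first of these was 0.57 on the log2(FPKM + 1) scale, which compresses changes of scarce genes.

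**Figure D1:**
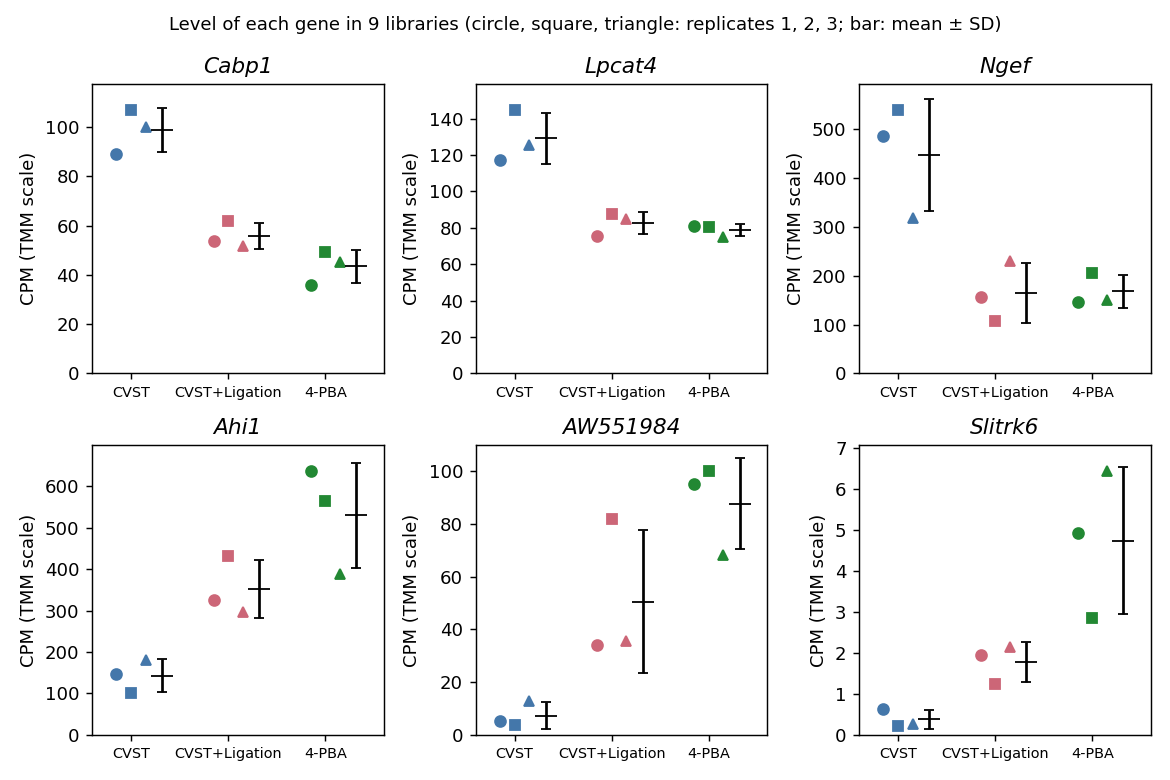
Level of each of the 6 genes in the 9 libraries, in CPM on the TMM scale (y axis, from 0) by group (x axis). Circles, squares and triangles are replicates 1, 2 and 3, and the bar beside them is the mean with its SD over 3 mice. Cabp1, Lpcat4 and Ngef are lower, and Ahi1, AW551984 and Slitrk6 higher, in all 6 ligated mice than in the 3 CVST mice.

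Read per length of transcript, as the deposited FPKM, Ngef was the most abundant of the 6 in CVST at 192 ± 53.3 FPKM, followed by Lpcat4 at 80.2 ± 10.4, Cabp1 at 75.3 ± 7.83 and Ahi1 at 43.5 ± 11.3 FPKM (SD, n = 3). Lpcat4 and Cabp1 differed by less than the spread of either. AW551984 followed at 2.93 ± 1.92 and Slitrk6 at 0.146 ± 0.0876 FPKM. In 4-PBA the order was changed, with Ahi1 first at 170 ± 38.8 FPKM, Ngef at 75.3 ± 13.9, Lpcat4 at 51.3 ± 1.29, AW551984 at 37.1 ± 6.61 and Cabp1 at 34.9 ± 5.36 FPKM. AW551984 and Cabp1 were within the spread of each other there, whereas in CVST they stood far apart. Slitrk6 remained the lowest at 1.94 ± 0.767 FPKM.

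Against the background of the whole table, all 6 genes had an unadjusted p below 0.05 in CVST+Ligation against CVST with edgeR's quasi-likelihood test, 3 in each direction, beside 9.64% of all genes tested (5.47% higher and 4.18% lower). The groups did not overlap for any of the 6, beside 13.8% of all genes. None of the 6 was among the 3 genes (0.0203%) with an adjusted p below 0.05, whereas DESeq2 placed all 6 among its 264. In 4-PBA against CVST, which shares its control mice with that comparison, all 6 had an unadjusted p below 0.05 beside 15.4% of all genes (8.07% higher and 7.33% lower), and the groups did not overlap for all 6 beside 23.7%. Of the 6, Cabp1, Ahi1, Slitrk6 and AW551984 were among the 18 genes (0.122%) past the adjusted threshold. None of the 6 passed it without CVST replicate 1, CVST replicate 2, 4-PBA replicate 1 or 4-PBA replicate 2, or where 10 counts were required in every library, and 2 passed with the replicate number as a block. Since these contrasts were used to choose the genes, nothing is read from the counts.

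The log2 fold changes of 4-PBA against CVST were -1.18 (SE 0.15) for Cabp1, -0.71 (SE 0.12) for Lpcat4 and -1.42 (SE 0.29) for Ngef. They were 1.89 (SE 0.26) for Ahi1, 3.59 (SE 0.52) for AW551984 and 3.62 (SE 0.52) for Slitrk6. For Lpcat4 and Ngef the log2 fold change between the ligated groups was near 0, at -0.07 (SE 0.12) and 0.02 (SE 0.29). For Cabp1, Ahi1, AW551984 and Slitrk6 the group mean of 4-PBA lay farther from CVST than that of CVST+Ligation.

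In 4-PBA against CVST+Ligation, Cabp1 (lower) and Ahi1 and Slitrk6 (higher) had an unadjusted p below 0.05, 3 of the 6 beside 3.23% of all genes (1.81% higher and 1.42% lower). The groups did not overlap for Cabp1 and Slitrk6, beside 7.73% of all genes. With edgeR, 0 genes of the table passed the adjusted threshold in this comparison and 476 had an unadjusted p below 0.05, while DESeq2 found 22 past it, and limma 2 on log2(FPKM + 1) and 0 on log2(FPKM + 0.1). The calls depended on the mice included: 1 to 3 of the 6 genes were called when each library of either group was left out in turn. Among these fits, Slitrk6 lost its call only without 4-PBA replicate 3, where Ahi1 alone was called. Cabp1 kept its call only without CVST+Ligation replicate 3 or 4-PBA replicate 2, and Ahi1 only without CVST+Ligation replicate 2 or 4-PBA replicate 3. With the replicate number as a block, Cabp1 and Slitrk6 were called and Ahi1 was not.

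Without CVST+Ligation replicate 2, the log2 fold changes of CVST+Ligation against CVST were -0.91 for Cabp1, -0.69 for Lpcat4 and -1.21 for Ngef. They were 1.13 for Ahi1, 2.26 for AW551984 and 2.41 for Slitrk6. All 6 kept their direction. Against this reduced group, the log2 fold changes of 4-PBA were 0.78 for Ahi1, 1.35 for AW551984 and 1.23 for Slitrk6. They were -0.26 for Cabp1, -0.01 for Lpcat4 and -0.19 for Ngef, whose sign changed. AW551984 moved by more than the SE of its value with all libraries, and at an unadjusted p below 0.05 it was called in this setting while Cabp1 no longer was.

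**Figure D2:**
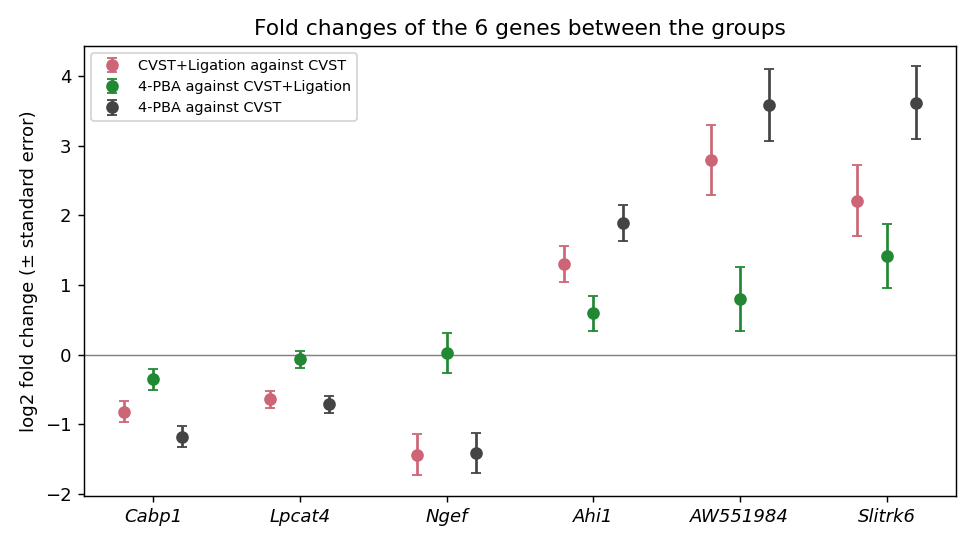
Log2 fold change of each of the 6 genes (x axis) between groups, with its standard error from the edgeR fit of 9 libraries. Red points compare CVST+Ligation with CVST, green points 4-PBA with CVST+Ligation and dark points 4-PBA with CVST. The green points of Lpcat4 and Ngef lie within 1 standard error of 0, and the red and dark points of every gene lie on the same side of 0.

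The closest match among the 6 was between Ahi1 and AW551984, whose log2 CPM correlated with r = 0.983 over the 9 libraries and with r = 0.872 after each group's mean was taken away. The 3 CVST mice had the same order for both genes, with replicate 3 the highest. CVST+Ligation replicate 2 was the highest of its group and 4-PBA replicate 3 the lowest of its group for both. Their ratio was not constant: Ahi1 exceeded AW551984 by 10.6 to 21.2 times in FPKM in CVST, by 4.00 to 7.30 times in CVST+Ligation and by 4.29 to 5.08 times in 4-PBA. Values of both genes in a mouse come from the same library and share its depth, so the correlations describe 9 points and carry no p.

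**Figure D3:**
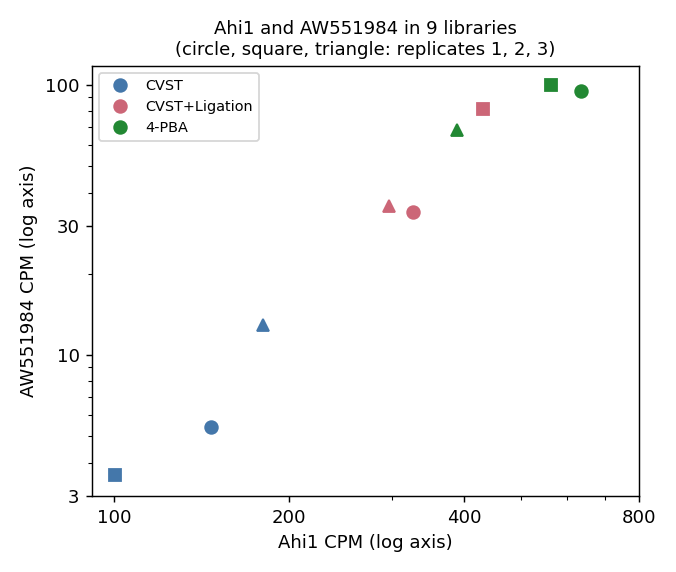
CPM of Ahi1 (x axis, log scale) and AW551984 (y axis, log scale) in the 9 libraries, coloured by group, with circles, squares and triangles for replicates 1, 2 and 3. The points rise together from CVST replicate 2 at 100 and 3.59 CPM to the 4-PBA libraries, and CVST+Ligation replicate 2 lies among the 4-PBA mice.

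The other pairs shared the difference between groups more than the variation inside them. Cabp1 and Lpcat4 correlated with r = 0.928 over all libraries and 0.355 with group means taken away. Cabp1 and Slitrk6 ran opposite to each other, with r = -0.968 and -0.683. Ngef ran opposite to AW551984, with r = -0.920 and -0.737, and the mice with the lowest Ngef in CVST (replicate 3) and in CVST+Ligation (replicate 2) had the highest AW551984 of their groups. In 4-PBA, by contrast, replicate 2 was the highest for both genes. Slitrk6 and AW551984 were both higher after ligation (r = 0.844) but did not follow each other within groups (r = -0.384).

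Among all genes tested, those most like Ahi1 over the 9 libraries were AW551984 (r = 0.983), Ankrd55 and Tmem130 (0.979 each), at 0.872, 0.962 and 0.923 with group means taken away. Ankrd55 measured 6.05, 15 and 17.2 CPM on average in CVST, CVST+Ligation and 4-PBA, and Tmem130 measured 140, 242 and 320 CPM. AW551984 was most like Dgkk, which encodes a diacylglycerol kinase, Ankrd55 and Tox2, with r = 0.987 each and 0.905, 0.958 and 0.947 with group means taken away. Dgkk was nearly absent from CVST at 0.481 CPM and averaged 8.86 and 12.4 CPM in CVST+Ligation and 4-PBA. The CVST+Ligation mice held 4.42, 18.7 and 3.47 CPM of Dgkk, by far the most in replicate 2. Ankrd55 thus stood among the 3 closest genes of both Ahi1 and AW551984.

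Slitrk6 was most like Gbx2, a homeobox transcription factor of the developing thalamus that is on the thalamic marker list (r = 0.981, and 0.910 with group means taken away). Gbx2 was at 0 counts in CVST replicate 3 and averaged 0.0997, 0.842 and 2.86 CPM in the 3 groups. Ano5 followed (r = 0.951, and 0.548 with group means taken away), at 0.461, 1.1 and 1.71 CPM in the 3 groups.

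Cabp1 was most like Vcpkmt (r = 0.967, and 0.736 with group means taken away), Vps9d1 (0.962 and 0.348) and Spc24 (0.957 and 0.590), which averaged 24.4, 39.6 and 3.85 CPM in CVST and 17.8, 30.9 and 1.81 CPM in CVST+Ligation. Lpcat4 was most like Fam151b (r = 0.966, and 0.862 with group means taken away), Vcpkmt (0.952 and 0.772) and Pradc1 (0.95 and 0.516). Vcpkmt, a methyltransferase of the chaperone VCP, was close to both lower genes. Ngef was most like Arpp19, which encodes an inhibitor of protein phosphatase 2A (r = 0.984, and 0.926 with group means taken away), and Arpp19 averaged 329, 95.5 and 106 CPM in the 3 groups. Krt10 (0.980 and 0.944) and Ppp6r1 (0.970 and 0.905) followed.

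Markers of brain regions, counted at an unadjusted p below 0.05, also differed between the groups. Of 12 markers of striatal projection neurons, 11 fell in CVST+Ligation against CVST, beside 4.18% of all genes, and their summed level was 636 to 1841 CPM in CVST (median 1412), 350 to 427 CPM in CVST+Ligation (median 381) and 299 to 1017 CPM in 4-PBA (median 526). In 4-PBA 3 of the 12 were called lower than in CVST, beside 7.33%, and against CVST+Ligation all 12 had positive log2 fold changes, with a median of 0.79 and 1 called. Of 10 markers of cortical excitatory neurons, 5 fell in CVST+Ligation against CVST, beside 4.18% of all genes. In 4-PBA 7 fell against CVST, beside 7.33%, and 2 against CVST+Ligation, beside 1.42%. Their sum was 2247 to 2547, 645 to 1876 (median 1874) and 729 to 1050 CPM in the 3 groups. The 645 CPM belonged to CVST+Ligation replicate 2. Without that library 3 of the 10 fell in CVST+Ligation against CVST, beside 3.42% of all genes. No striatal or cortical marker was at 0 in any library. Ngef, which is itself abundant in forebrain neurons, correlated with the striatal sum at r = 0.841 over the 9 libraries and 0.617 with group means taken away, and with the cortical sum at r = 0.778 and 0.518. With the pan-neuronal sum Ngef correlated at r = 0.735, and at 0.827 with group means taken away, which is above both regional values. CVST replicate 3, with the lowest Ngef of its group, also had the lowest striatal sum of its group.

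Markers of several deeper regions were higher. Of 10 thalamic neuron markers, 6 rose in CVST+Ligation against CVST (beside 5.47% of all genes), 6 in 4-PBA against CVST+Ligation (beside 1.81%) and 10 in 4-PBA against CVST (beside 8.07%), with sums of 87.6 to 92.8, 179 to 350 and 365 to 723 CPM in the 3 groups. Of 10 midbrain dopamine neuron markers, 9 rose in CVST+Ligation against CVST, beside 5.47% of all genes, with sums of 86.2 to 179, 370 to 555 and 406 to 495 CPM. None was called in 4-PBA against CVST+Ligation with edgeR. The 3 genes of the whole table past the adjusted threshold in CVST+Ligation against CVST were all on this list. Pitx3, which defines these neurons, was at 0 counts in all 3 CVST libraries and in CVST+Ligation replicate 2, and Slc6a3, En1 and Foxa1 were at 0 in some CVST libraries. Hypothalamic sums were 5.90 to 47.2, 14.7 to 66.9 and 304 to 615 CPM, and of the 9 such markers tested 2 rose and 1 fell in CVST+Ligation against CVST, where their median log2 fold change was 0.07, and 6 rose in 4-PBA against CVST+Ligation, beside 1.81% of all genes. Sim1 was at 0 in all 3 CVST libraries and in CVST+Ligation replicates 1 and 2. Hcrt, Oxt, Otp or Ghrh were at 0 in some CVST libraries, and Oxt, Avp, Otp, Ghrh or Nkx2-1 in some CVST+Ligation libraries, whereas no hypothalamic marker was at 0 in 4-PBA.

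Over the 9 libraries, the thalamic sum correlated at r = 0.927 with Slitrk6, 0.897 with AW551984, 0.876 with Ahi1, -0.810 with Ngef, -0.840 with Lpcat4 and -0.922 with Cabp1. With group means taken away these values lay between -0.308 and 0.310. The midbrain dopamine sum correlated at r = 0.921 with AW551984, 0.865 with Ahi1 and -0.938 with Ngef, and at 0.488, 0.164 and -0.661 with group means taken away. Its r with Slitrk6, Cabp1 and Lpcat4 was 0.766, -0.824 and -0.850. With group means taken away these values changed sign, to -0.595, 0.448 and 0.475. The part of these region differences in the levels of the 6 genes was not tested. In tissue of this kind, fewer cells of a type and less RNA per cell cannot be told apart.

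**Figure D4:**
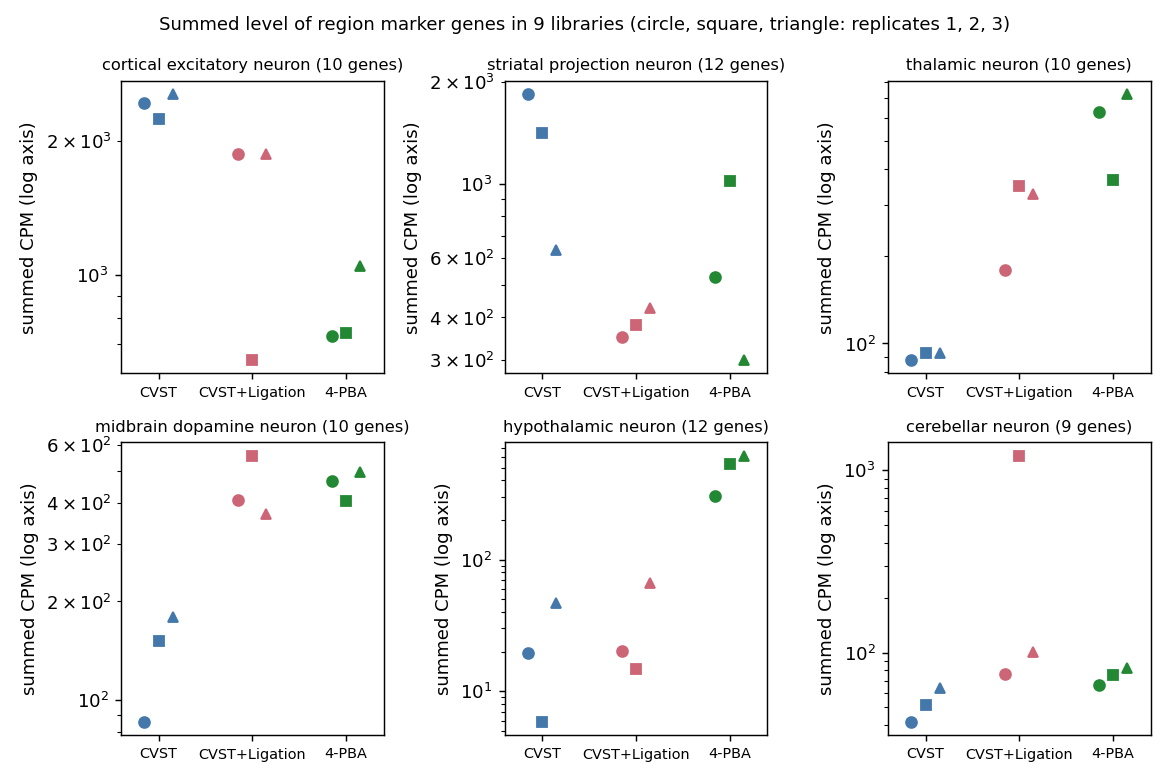
Summed CPM of markers of 6 kinds of neuron (y axes, log scale, each panel on its own range) by group (x axis), with circles, squares and triangles for replicates 1, 2 and 3. Thalamic and midbrain dopamine sums lie higher in all ligated mice than in CVST, and the cerebellar sum of 1201 CPM belongs to CVST+Ligation replicate 2.

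Other lists moved with the groups as well. Sums of 12 transcription factors of midbrain and brainstem were 2.21 to 4.17, 14.8 to 89.1 and 18.4 to 19.7 CPM in the 3 groups. The median in CVST+Ligation was 15.5 CPM, and the 89.1 CPM belonged to replicate 2 of that group. Without that library, 7 of the 9 tested rose in CVST+Ligation against CVST, beside 4.65% of all genes. With all libraries, 8 of the 9 rose in CVST+Ligation against CVST, beside 5.47% of all genes. So did 7 of 7 tested cerebellar markers, whose sum was 1201 CPM in CVST+Ligation replicate 2 against 76.4 and 101 CPM in the other two, and 1 of the 7 rose in 4-PBA against CVST, beside 8.07%. Of the 7, 3 fell in 4-PBA against CVST+Ligation, beside 1.42%, with a median log2 fold change of -2.50. Without CVST+Ligation replicate 2, 3 of the 7 rose in CVST+Ligation against CVST, and the median in 4-PBA against CVST+Ligation was 0.09. Gabra6, which defines cerebellar granule cells, was at 0 in every library but CVST+Ligation replicates 2 and 3. Of 13 immediate early genes, which neurons switch on with activity, 10 fell in CVST+Ligation against CVST, beside 4.18% of all genes. Their sum was 770 to 1993 CPM in CVST, 468 to 650 CPM in CVST+Ligation and 358 to 509 CPM in 4-PBA, and it correlated at r = 0.807 with Cabp1, 0.749 with Lpcat4 and 0.752 with Ngef, but at -0.189, -0.671 and -0.0808 with group means taken away. CVST replicate 2 had the lowest such sum of its group and the highest Cabp1, Lpcat4 and Ngef. Of 7 microglial markers, 3 fell in CVST+Ligation against CVST, beside 4.18%. Of 8 choroid plexus markers, none was called in that comparison with edgeR, and 4 rose in 4-PBA against CVST+Ligation (median log2 fold change 2.08, beside 1.81%) and 4 in 4-PBA against CVST (beside 8.07%). Their sum was 795 to 987 CPM in CVST, 18.7 to 864 CPM in CVST+Ligation and 448 to 3146 CPM in 4-PBA. Of 7 hippocampal markers, 2 rose in CVST+Ligation against CVST (median 1.5, beside 5.47%), and 4 did without CVST+Ligation replicate 2. Of 8 oligodendrocyte markers, 1 rose in CVST+Ligation against CVST (12.5% called, beside 9.64% of all genes) and 5 rose in 4-PBA against CVST (62.5%, beside 15.4%). Their part in the levels of the 6 genes was not tested.

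The relatives and partners of the 6 genes were compared to see whether whole families moved. Of 16 tested members of the CaBP and neuronal calcium sensor family, 1 rose and 2 fell in CVST+Ligation against CVST (18.8% called, beside 9.64% of all genes), with a median log2 fold change of -0.13 against 0.00 for all genes. Calm2, which encodes calmodulin, fell by 0.41 (SE 0.16) on the log2 scale, and Cabp7, a close relative of Cabp1, rose from 14.6 ± 13.6 to 44.7 ± 7.99 CPM (SD, n = 3). In 4-PBA against CVST+Ligation, Vsnl1, Calm3 and Caln1 fell, with log2 fold changes of -0.41, -0.27 and -0.61 (18.8% called, beside 3.23% of all genes, 1.42% lower). With 1 library left out, 0 to 7 of the 16 were called in this comparison (7 without CVST+Ligation replicate 2, and 0 without 4-PBA replicate 2 or 3) and 0 to 4 in CVST+Ligation against CVST (0 without CVST+Ligation replicate 2, 1 without CVST replicate 2). In 4-PBA against CVST, 6 of the 16 fell and none rose (37.5% called, beside 15.4% of all genes, 7.33% lower), with a median of -0.45, and Kcnip3, a calcium sensor that binds potassium channels, fell from 144 ± 51.8 to 63.4 ± 13.8 CPM.

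Of the 7 channels and receptors that CaBP1 binds, Trpc5 alone was called in CVST+Ligation against CVST (14.3%, beside 9.64% of all genes) and rose from 2.47 ± 0.298 to 6.56 ± 2.50 CPM (SD, n = 3). Itpr1, the inositol trisphosphate receptor of neurons, and Cacna1a, the P/Q-type calcium channel, fell in 4-PBA against CVST+Ligation by 1.45 (SE 0.53) and 0.66 (SE 0.25) on the log2 scale, 28.6% of the list beside 3.23% of all genes. With 1 library left out, 0 to 2 of the list were called there, 0 without 4-PBA replicate 3 and 1 without 4-PBA replicate 2. Without CVST+Ligation replicate 2, the log2 fold changes of Itpr1 and Cacna1a were -0.62 (SE 0.40) and -0.33 (SE 0.20), and neither was called. Cacna1c and Cacna1d, the L-type channels that CaBP1 regulates, had log2 fold changes of 0.26 (SE 0.31) and -0.06 (SE 0.27) in CVST+Ligation against CVST and were not called.

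Of 20 acyltransferases and phospholipases A2, Pla2g7 alone was called in CVST+Ligation against CVST, 5% of the list beside 9.64% of all genes. It encodes the secreted phospholipase that breaks down platelet-activating factor, and it rose from 140 ± 45.0 to 283 ± 104 CPM (SD, n = 3). The nearest relatives of Lpcat4 were not called, and Lpcat1, Lpcat2 and Lpcat3 had log2 fold changes of -0.02 (SE 0.16), -0.15 (SE 0.13) and 0.04 (SE 0.16). The median of the list was -0.02.

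Of 25 jouberin partners and proteins of the ciliary transition zone, Hap1 rose and Nphp4 and B9d2 fell in CVST+Ligation against CVST. These are 12% of the list beside 9.64% of all genes, and 1 to 4 were called with 1 library left out, 4 without CVST replicate 2 and 1 without CVST replicate 1 or CVST+Ligation replicate 1. Hap1, the huntingtin-associated protein that jouberin binds, measured 108, 52.4 and 205 CPM in CVST, 230, 283 and 226 CPM in CVST+Ligation and 498, 446 and 245 CPM in 4-PBA. The order of the 3 mice within each group was that of Ahi1. Its log2 fold change was 1.02 (SE 0.43) in CVST+Ligation against CVST and 1.70 (SE 0.44) in 4-PBA against CVST. Nphp4 and B9d2, which build the transition zone, fell by 0.52 (SE 0.16) and 0.49 (SE 0.21). Without CVST+Ligation replicate 2, Hap1 at 0.91 (SE 0.48) and B9d2 at -0.41 (SE 0.23) were no longer called. The median of the list was -0.06.

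Of 15 Slitrk and receptor phosphatase genes, 0 were called by edgeR in CVST+Ligation against CVST at an unadjusted p below 0.05, and likewise 0 by DESeq2 and by limma, beside 9.64% of all genes by edgeR. With 1 library left out, 0 to 2 were called, 2 without CVST replicate 1. The 5 other family members tested, Slitrk1 to Slitrk5, had log2 fold changes between -0.28 and 0.17 in that comparison. Slitrk1 alone of the list was called in 4-PBA against CVST and fell by 0.39 on the log2 scale (edgeR adjusted p = 0.255). This is 6.67% of the list beside 15.4% of all genes, and the count was 0 without CVST replicate 2, 4-PBA replicate 2 or 4-PBA replicate 3 and 2 without CVST replicate 3. Of 27 ephexins, Eph receptors and small GTPases, Epha8 alone was called in CVST+Ligation against CVST (3.7%, beside 9.64% of all genes) and rose from 2.62 ± 0.953 to 6.77 ± 6.09 CPM (SD, n = 3), with a spread in CVST+Ligation nearly as large as its mean. With 1 library left out, 0 to 5 of these genes were called, 0 without CVST replicate 2 and 5 without CVST+Ligation replicate 2. Of 8 tested genes with von Willebrand A domains, Vwa5b1 alone was called (12.5%, beside 9.64%) and rose from 2.03 ± 0.491 to 6.03 ± 4.75 CPM and stood at 7.96 ± 0.582 CPM in 4-PBA. In the CVST+Ligation mice Vwa5b1 measured 4.09, 11.4 and 2.55 CPM, the highest in replicate 2. Without that library the log2 fold change of Vwa5b1 went from 1.56 to 0.71 (SE 0.32) and that of Epha8 from 1.36 to 0.31 (SE 0.38), and neither was called. Adjusted p-values of the genes named here as called in these lists lay between 0.32 and 0.502 in CVST+Ligation against CVST (edgeR quasi-likelihood test, Benjamini-Hochberg adjustment) and were 1 in 4-PBA against CVST+Ligation.

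**Figure D5:**
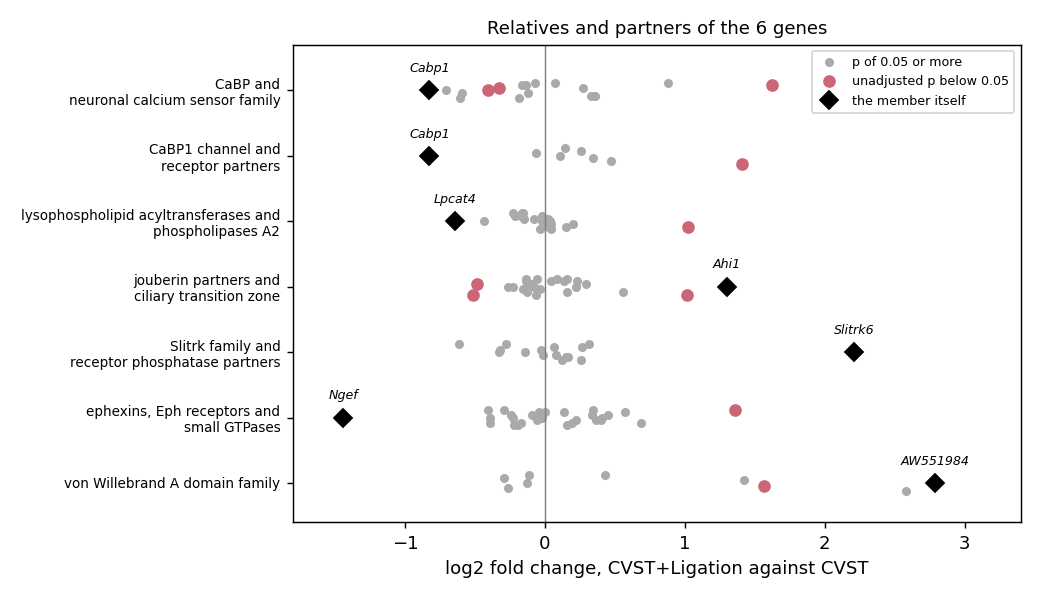
Log2 fold change in CVST+Ligation against CVST (x axis) of the genes of 7 lists of relatives and partners (rows). Grey points had an unadjusted p of 0.05 or more, red points an unadjusted p below 0.05, and black diamonds are the 6 genes themselves, which belong to no list count. Each of the 6 genes, which were chosen for their differences, lies farther from 0 than any relative on its side.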

How the data were processed

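Brain RNA of 9 mice was sequenced as paired reads on a NovaSeq X Plus, and samples were grouped by the names in their labels. The submitters' processing notes name fastp, HISAT2, StringTie and RSEM and the builds mm10 and GRCm38. The authors deposited whole-number counts per gene symbol, without normalization, for 20731 genes. They also deposited FPKM values, which the methods call TPM. Their columns sum to 780195 to 879696, and with the counts they give a whole length, within 1e-06 bases, for each of 17446 genes. The methods give HISAT2 in orientation mode for alignment and RSEM for transcript abundance. The sources used here do not say which tool gave the whole-number counts or how it handled shared reads.

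The fit to the counts used edgeR 4.0.16 under R 4.3.3 (TMM, filterByExpr, quasi-likelihood test, 1 fit of 9 libraries with 3 group means and no covariates), which was checked on simulated data. CPM is on the TMM scale. A gene was called at an unadjusted p below 0.05, or after Benjamini-Hochberg adjustment over 14746 genes. Correlations used log2 CPM with a prior count of 2. FPKM served for levels between genes. Depths of 18100739 to 25091498 counts set the floor of 3 counts, which covers counting error only. No 2 libraries of a group matched within sampling noise.

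The 6 genes and all gene lists were chosen with earlier results of these data known. The genes named are the 6, up to 3 called genes with the smallest p in each list of relatives for each comparison with CVST+Ligation, the 3 genes most like each of the 6, and marker genes at 0 counts. Some genes that meet this rule are not reported here. Relatives named outside this rule (Lpcat1, Lpcat2, Lpcat3, Slitrk1 to Slitrk5, Cacna1c, Cacna1d and Kcnip3) were chosen after their values were seen. Alternatives were DESeq2 1.42.0, other scalings and filters, a fit of the 2 groups compared, the replicate number as a block, limma 3.58.1 on log2 FPKM with 1 or 0.1 added, and leaving out each of the libraries. Plots were drawn with matplotlib 3.10.9.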

Additional observations from a re-analysis of the deposited data

How the results depend on the processing

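Under the 15 alternatives, each of the 6 genes that could be fitted kept its direction in CVST+Ligation against CVST and in 4-PBA against CVST. Slitrk6 could not be fitted where 10 counts were required in every library. Of the 6, 5 to 6 had an unadjusted p below 0.05 in both comparisons, and 1 to 3 in 4-PBA against CVST+Ligation, where the log2 fold change of Ngef ran from -0.19 to 0.34 with 1 library left out. On log2(FPKM + 1), the log2 fold changes of Slitrk6 were 0.57, 0.76 and 1.33 in CVST+Ligation against CVST, 4-PBA against CVST+Ligation and 4-PBA against CVST, and with 1 library left out they ran from 1.94 to 2.83, 1.12 to 1.67 and 3.33 to 4.25. AW551984 ran from 0.59 to 1.35 in 4-PBA against CVST+Ligation, the last without CVST+Ligation replicate 2.

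Counts of genes past the adjusted threshold moved with most alternatives. In CVST+Ligation against CVST there were 3, but 264 with DESeq2, 0 with at least 10 counts, 1 with only the 2 groups compared, 11 with limma on log2(FPKM + 0.1) and 0 to 7 with 1 library left out. In 4-PBA against CVST+Ligation there were 0 with edgeR, 476 at an unadjusted p below 0.05, 22 with DESeq2, 2 with limma on log2(FPKM + 1) and 0 to 2 with 1 library left out. In 4-PBA against CVST there were 18, but 855 with DESeq2, 112 over all genes with a count, 2 with at least 10 counts, 234 with only the 2 groups compared, 56 and 69 with limma after adding 1 or 0.1 to the FPKM, and 2 to 162 with 1 library left out. Of the 6 genes, 4 passed this threshold in 4-PBA against CVST, but 0 without CVST replicate 1, CVST replicate 2, 4-PBA replicate 1 or 4-PBA replicate 2, 0 with at least 10 counts, 2 without 4-PBA replicate 3 and 6 without CVST replicate 3. The count of 476 became 1497 without CVST+Ligation replicate 2 and 256 without 4-PBA replicate 2. The causes were not tested.

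Higher genes were 56.7, 56.1 and 52.4% of those at an unadjusted p below 0.05 in CVST+Ligation against CVST, 4-PBA against CVST+Ligation and 4-PBA against CVST, but 65.4, 66.1 and 65.1% when scaled by total counts. With the replicate number as a block, 1 gene passed the adjusted threshold in CVST+Ligation against CVST and 1 in 4-PBA against CVST+Ligation, the unadjusted counts were 1765, 521 and 2644, and 2 of the 6 genes passed adjustment in 4-PBA against CVST. In that fit Ahi1 was not called in 4-PBA against CVST+Ligation, while Cabp1 and Slitrk6 were. Only 4 of 9 pairs of libraries with the same number deviated together at r above 0.1, so the numbers were not taken as pairs, while 7 of 9 libraries correlated best with their own number, a hint from the data and not from the design. Of the 15 correlations between pairs of the 6 genes, 13 changed by at least 0.2 when group means were taken away. Counts of called genes in the lists of relatives moved by over 1.5 times in 79 recomputed values and by less in 236. Recounting the marker lists without CVST+Ligation replicate 2 was chosen after seeing the data. Depth limits Slitrk6 above all, with 5 counts in each of 2 CVST libraries.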
